A study of Rattus norvegicus with 12 samples.

Results

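The HOX genes on these arrays were the 23 probe sets of 23188 whose annotated gene symbol was Hoxa, Hoxb, Hoxc or Hoxd followed by a number, with 1 probe set for each gene. A probe set counted as detected if 3 or more of the 12 arrays read 6 or higher on the log2 scale, and 14 of the 23 HOX genes passed. The cells were rat vascular smooth muscle cells (RVSMCs), cultured from thoracic aortas stripped of endothelium (rats of the Sprague-Dawley strain, males, 12 weeks old), and used at an early passage. All cells had been transfected for 48 h with 100 nM of a GapmeR, an antisense oligonucleotide that directs RNase H to its target RNA, and kept in serum-free medium before stimulation. AlivecGap targets *Alivec*, a long noncoding RNA that angiotensin II (AngII) induces in these cells, and NCGap is a negative control GapmeR (NGGap in the sample titles). The 4 groups of 3 arrays each were AlivecGap cells given 100 nM AngII for 3 h (AlivecGap + AngII), NCGap cells given the same (NCGap + AngII), AlivecGap cells given PBS (AlivecGap + PBS) and NCGap cells given PBS (NCGap + PBS). Every group therefore carried a GapmeR, and none was untransfected. The labels call the replicates biological without saying which culture or animal each came from, so p-values measure the spread between these samples. *Alivec* has no named probe set here, so its knockdown was not measured on these arrays.

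HOX proteins are homeodomain transcription factors that tell cells where along the body axis they are. Their genes lie in 4 clusters, and within a cluster the order of the genes along the chromosome follows the order of their expression along the embryo, from the low-numbered genes in the hindbrain and neck to the high-numbered ones in the lumbosacral region, limb ends and genitals. Genes with the same number in different clusters are paralogues of a common ancestor. Polycomb complexes keep silent HOX genes off, trithorax-type complexes keep active ones on, retinoic acid opens the low-numbered end of each cluster, and PBX, MEIS and PKNOX proteins bind DNA together with HOX proteins. Smooth muscle cells of the descending thoracic aorta come mainly from somitic mesoderm, and vascular cells in culture retain a HOX pattern that reflects their origin.

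The arrays were alike in overall signal. Array medians lay between 6.68 and 6.76 on the log2 scale, 59.8% to 62.2% of probe sets reached 6, and arrays of a group correlated at 0.992 to 0.995 over all probe sets. In total 14796 probe sets passed the detection filter and were tested. All 11 smooth muscle probe sets, including *Acta2*, *Tagln* and *Myh11*, were at or above 6 on every array, against 1 of 9 endothelial and 1 of 7 leukocyte probe sets, and *Pecam1*, *Cdh5* and *Ptprc* stayed below 6 on all 12. Adventitial fibroblast probe sets were detected in 5 of 7 cases, among them *Dcn*, *Lum* and *Pdgfra*, while *Cd34* and *Ly6c* were below 6 on all 12 arrays. Schwann cell probe sets were detected in 3 of 4 cases, with *Sox10* and *Ngfr* at or above 6 on all 12 arrays, and cardiomyocyte probe sets in 2 of 5, with *Tnni3* on all 12.

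The filter passed 14 of the 23 HOX genes and 14796 of all 23188 probe sets. The detected HOX genes came mostly from the *Hoxa*, *Hoxb* and *Hoxd* clusters. They ran from paralogue group 2 to group 13, but both ends rest on the marginal genes *Hoxa2*, *Hoxa13* and *Hoxd13*. Genes at or above 6 on all 12 arrays ran from group 3 to group 12, where the upper end rests on *Hoxd12* alone. Its signals were 6.33 to 6.80, beside array medians of 6.68 to 6.76. The cardiomyocyte marker *Tnni3* also reached 6 on all 12 arrays, so reaching 6 does not by itself show expression in these cells. In the *Hoxa* cluster on chromosome 4, 4 of 5 measured genes were detected (*Hoxa2*, *Hoxa6*, *Hoxa7*, *Hoxa13*). In the *Hoxb* cluster on chromosome 10, 5 of 7 were detected (*Hoxb3*, *Hoxb4*, *Hoxb5*, *Hoxb7*, *Hoxb8*), all of them on all 12 arrays. The *Hoxd* cluster on chromosome 3 had 4 of 6 (*Hoxd3*, *Hoxd9*, *Hoxd12*, *Hoxd13*), and the *Hoxc* cluster on chromosome 7 had 1 of 5, *Hoxc4*. By paralogue group, each of the measured genes of groups 2, 3, 4, 6 and 7 was detected, and the measured genes of groups 1, 10 and 11 (*Hoxd1*, *Hoxd10* and *Hoxa11*, 1 in each group) were not. The GRCr8 annotation of RefSeq holds 39 rat HOX genes, and 16 of them, including *Hoxa5*, *Hoxa9*, *Hoxc6* and *Hoxd8*, had no named probe set, so these counts describe the measured genes and not whole clusters.

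**Figure D1:**
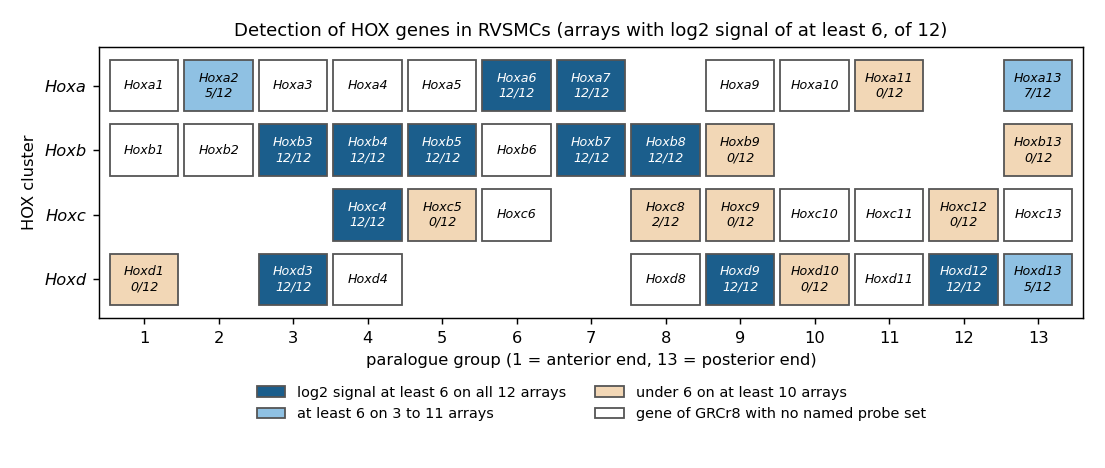
Detection of HOX genes over the 12 arrays, with the 4 clusters in rows and the 13 paralogue groups in columns, and under each measured gene the number of arrays at or above a log2 signal of 6. The *Hoxb* genes from group 3 to group 8 are dark where measured, 1 of 5 measured *Hoxc* genes is, and white boxes are the 16 genes with no named probe set.

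At or above 6 on all 12 arrays were 11 genes. Dim ones among them were *Hoxb4*, *Hoxb8* and *Hoxd12*, which reached 7 on 0 arrays, *Hoxd3* on 1 and *Hoxc4* on 2. Detection was marginal for the other 3 genes. *Hoxa13* reached 6 on 7 arrays with a highest signal of 6.21, *Hoxa2* on 5 arrays with a highest signal of 6.31, and *Hoxd13* on 5 arrays with a highest signal of 6.32. *Hoxa2* passed only through PBS arrays and *Hoxd13* only through NCGap arrays, so the filter itself favoured a difference in these genes, and counts are therefore also given for the 11. Just outside the filter, *Hoxc8* reached 6 on 2 arrays, at most 6.20, and *Hoxc9* peaked at 5.85. The other undetected genes peaked at 5.67 (*Hoxc5*), 5.66 (*Hoxc12*), 5.61 (*Hoxb13*), 4.93 (*Hoxa11*), 4.72 (*Hoxd1*), 4.62 (*Hoxb9*) and 4.47 (*Hoxd10*).

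Some probe sets cannot be assigned to a HOX gene alone. In GRCr8 the span of *Hoxa6* overlaps *Hoxa3* and the noncoding *Hoxaas3*, that of *Hoxc4* overlaps *Hoxc6*, that of *Hoxb5* overlaps the noncoding *Hoxb5os*, and that of *Hoxb3* overlaps the unnamed locus LOC102550580. The probe positions were not used here, so a signal under these 4 names may include the overlapping transcript. The spans of the other 10 detected genes overlapped no annotated gene, which does not show where their probes lie. The probe set identifiers of *Hoxa2*, *Hoxa6* and *Hoxa7* read as unmapped, and that of *Hoxa13* names a random sequence of chromosome 4. The chromosomes given above are those of the annotated genes.

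Promoter sequences from RefSeq (GRCr8) were matched for 12 of the 23 genes and 9 of the 14 detected ones. The 250 bases before the annotated start are printed for the 3 genes with the largest AngII differences, *Hoxa7*, *Hoxa6* and *Hoxd9*, and for *Hoxa2*, which alone among the 9 held a motif that was searched for. Capitals mark each CpG, the dinucleotide that carries DNA methylation and is dense in promoters under Polycomb and trithorax control. The windows are chr4:82648242-82648491 (minus strand) for *Hoxa7*, chr4:82639464-82639713 (minus) for *Hoxa6*, chr3:80007756-80008005 (plus) for *Hoxd9* and chr4:82595693-82595942 (minus) for *Hoxa2*, each written 5′ to 3′ along its gene.
*Hoxa7* promoter: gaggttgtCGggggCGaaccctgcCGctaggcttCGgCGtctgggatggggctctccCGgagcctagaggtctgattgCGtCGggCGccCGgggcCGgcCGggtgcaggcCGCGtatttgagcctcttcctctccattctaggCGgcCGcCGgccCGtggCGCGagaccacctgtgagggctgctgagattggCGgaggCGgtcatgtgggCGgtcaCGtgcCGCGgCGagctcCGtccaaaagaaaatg
*Hoxa6* promoter: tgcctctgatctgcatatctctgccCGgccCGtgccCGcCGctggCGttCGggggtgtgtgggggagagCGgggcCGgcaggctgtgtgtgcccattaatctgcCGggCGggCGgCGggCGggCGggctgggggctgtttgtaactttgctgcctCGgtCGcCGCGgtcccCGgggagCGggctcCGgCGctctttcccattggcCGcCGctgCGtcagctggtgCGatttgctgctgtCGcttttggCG
*Hoxd9* promoter: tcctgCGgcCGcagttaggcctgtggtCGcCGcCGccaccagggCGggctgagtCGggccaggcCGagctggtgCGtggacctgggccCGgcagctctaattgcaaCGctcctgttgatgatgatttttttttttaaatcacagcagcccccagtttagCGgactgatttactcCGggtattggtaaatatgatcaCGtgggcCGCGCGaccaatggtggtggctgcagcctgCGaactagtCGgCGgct
*Hoxa2* promoter: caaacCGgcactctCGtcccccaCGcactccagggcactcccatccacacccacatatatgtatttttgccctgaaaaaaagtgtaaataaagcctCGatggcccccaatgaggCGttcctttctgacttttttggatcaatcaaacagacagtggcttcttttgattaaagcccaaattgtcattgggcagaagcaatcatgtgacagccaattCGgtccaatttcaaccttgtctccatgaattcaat

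The *Hoxa7* and *Hoxa6* windows each held 28 CpGs and the *Hoxd9* window 20, while the *Hoxa2* window held 6 and the median of 33469 rat promoter windows of the same length held 5. The relation of CpG count to the AngII response described next was not tested. *Hoxa13*, *Hoxd13*, *Hoxd12* and *Hoxd3*, which did not pass the AngII test, had 39, 30, 14 and 11, and *Hoxc4*, which passed it, had 3. Both strands were searched for TGATNNAT, a HOX-PBX site that 7.96% of all windows held, for TGACAG, a MEIS or PKNOX site held by 15.8%, and for the AP-1 and CRE sites TGANTCA and TGACGTCA, held by 6.34% and 1.59%. *Hoxa2* had a HOX-PBX match starting 114 bases before its start and a MEIS or PKNOX match starting 47 bases before it. The other 8 detected genes had none of the 4 motifs in this window.

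The question of whether AngII changed HOX expression was asked in each GapmeR background and as the mean of both. AngII lowered a set of HOX genes led by *Hoxa7*, *Hoxa6* and *Hoxd9*, and raised none. By the limma fit with Benjamini-Hochberg adjustment, at an adjusted p under 0.05, 8 of the 14 detected genes were lower with AngII in AlivecGap cells, where 15.6% of all tested probe sets were called lower, 10.8% higher and 26.3% in either direction. In NCGap cells 6 of 14 were lower, against 17.9% called lower, 13.3% higher and 31.2% in either direction. For the mean AngII effect 9 of 14 were lower, against 26.2% called lower, 16.1% higher and 42.3% in either direction. Restricted to the 11 genes detected on all 12 arrays the counts were 7, 5 and 8. The median log2 fold change of the 14 was −0.37 in AlivecGap cells, −0.27 in NCGap cells and −0.35 in the mean effect, beside −0.038, −0.049 and −0.038 for all tested probe sets.

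Group separation was counted on the same arrays. All 3 AngII arrays lay below all 3 PBS arrays for 8 HOX genes in AlivecGap cells (26.6% of tested probe sets). In NCGap cells this held for 6 (25.2%), and 6 genes separated in both backgrounds. These counts include *Hoxa2*, whose difference the filter favoured. For the 11 genes detected on all 12 arrays, 7 separated in AlivecGap cells and 5 in NCGap cells. Shares of all tested probe sets separated or called in both backgrounds were not computed. No HOX gene had all its AngII arrays above, as 16.9% of tested probe sets did in AlivecGap cells and 17% in NCGap cells. Of the 9 genes lower in either background, 5 were called in both (*Hoxa2*, *Hoxa6*, *Hoxa7*, *Hoxb4*, *Hoxd9*), 3 in AlivecGap cells alone (*Hoxb3*, *Hoxb5*, *Hoxc4*) and 1 in NCGap cells alone (*Hoxb7*). The difference between the backgrounds passed its own test for none of them, as given further on.

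**Figure D2:**
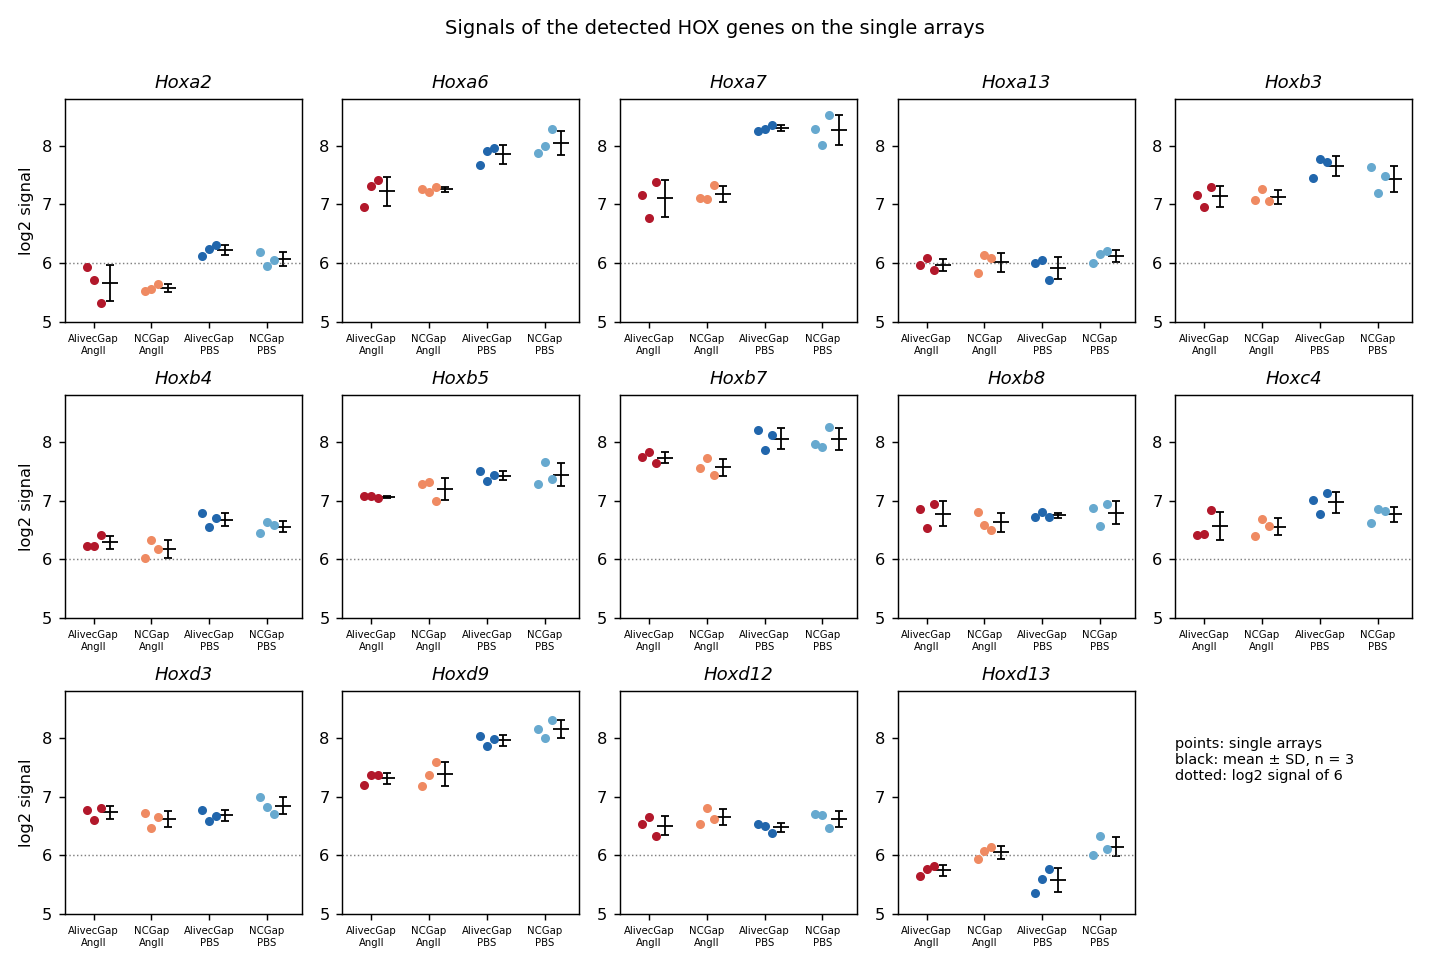
Log2 signals of the 14 detected HOX genes on the single arrays, with a point for each array, the group mean ± SD in black (n = 3) and a dotted line at 6. In *Hoxa7*, *Hoxa6* and *Hoxd9* all 6 AngII arrays lie below all 6 PBS arrays, and *Hoxb8* and *Hoxd12* overlap between treatments.

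*Hoxa7*, which patterns the thoracic region of the skeleton in the mouse, showed the largest difference of the HOX genes. Its log2 signals were 7.16, 6.77 and 7.39 in AlivecGap + AngII cells and 7.11, 7.10 and 7.33 in NCGap + AngII cells, against 8.26, 8.28 and 8.36 in AlivecGap + PBS cells and 8.28, 8.01 and 8.53 in NCGap + PBS cells. Every AngII array was thus lower than every PBS array. The log2 fold change was −1.19 ± 0.152 (SE) in AlivecGap cells (2.28-fold lower, limma adjusted p = 0.000128) and −1.09 ± 0.152 in NCGap cells (2.13-fold lower, adjusted p = 0.000175).

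*Hoxa6*, its neighbour in the cluster, had 6.95, 7.32 and 7.41 in AlivecGap + AngII cells and 7.26, 7.21 and 7.30 in NCGap + AngII cells, against 7.67, 7.92 and 7.97 in AlivecGap + PBS cells and 7.88, 8.0 and 8.28 in NCGap + PBS cells. The treatments did not overlap, and the lowest array was the first AlivecGap + AngII replicate. *Hoxa6* was 1.54-fold lower with AngII in AlivecGap cells (log2 fold change −0.63 ± 0.131 SE, limma adjusted p = 0.00391) and 1.73-fold lower in NCGap cells (−0.79 ± 0.131, adjusted p = 0.000635).

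*Hoxd9*, which acts in the posterior axial skeleton and the proximal limb, had 7.20, 7.37 and 7.36 in AlivecGap + AngII cells and 7.18, 7.37 and 7.59 in NCGap + AngII cells, against 8.03, 7.86 and 7.99 in AlivecGap + PBS cells and 8.16, 8.0 and 8.30 in NCGap + PBS cells. Here too the 6 AngII arrays were below the 6 PBS arrays. The log2 fold changes were −0.65 ± 0.108 in AlivecGap cells (1.57-fold lower, limma adjusted p = 0.000848) and −0.77 ± 0.108 in NCGap cells (1.70-fold lower, adjusted p = 0.000191). *Hoxd3* and *Hoxd12*, in the same cluster, did not pass the test in either background, though *Hoxd3* in NCGap cells, at −0.23 ± 0.0966 (adjusted p = 0.0871), passed without NCGap + PBS replicate 3 (−0.30, adjusted p = 0.046).

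*Hoxa2*, which sets the identity of the second pharyngeal arch, lay at the detection limit. Its signals were 5.93, 5.72 and 5.32 in AlivecGap + AngII cells and 5.52, 5.56 and 5.65 in NCGap + AngII cells, against 6.13, 6.24 and 6.31 in AlivecGap + PBS cells and 6.19, 5.95 and 6.06 in NCGap + PBS cells. All 6 AngII arrays were under 6, so its fold is a lower bound that sets the AngII mean at 6, at least 1.17-fold lower in AlivecGap cells and at least 1.05-fold lower in NCGap cells. The fit gave −0.57 ± 0.129 (limma adjusted p = 0.00637) and −0.49 ± 0.129 (adjusted p = 0.0122), and the call in NCGap cells was lost without NCGap + PBS replicate 1 (adjusted p = 0.0523).

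The *Hoxb* cluster fell at its measured genes of groups 3, 4, 5 and 7 in the mean AngII effect, but not at *Hoxb8*. *Hoxb4*, known for expanding blood stem cells, had 6.22, 6.23 and 6.41 in AlivecGap + AngII cells and 6.02, 6.32 and 6.18 in NCGap + AngII cells, against 6.78, 6.55 and 6.70 in AlivecGap + PBS cells and 6.45, 6.63 and 6.58 in NCGap + PBS cells. It was 1.31-fold lower in AlivecGap cells (log2 fold change −0.39 ± 0.0954, limma adjusted p = 0.00958) and 1.30-fold lower in NCGap cells (−0.38 ± 0.0954, adjusted p = 0.00934), with no overlap between treatments.

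*Hoxb7*, the paralogue of *Hoxa7*, had 7.74, 7.82 and 7.64 in AlivecGap + AngII cells and 7.55, 7.72 and 7.43 in NCGap + AngII cells, against 8.20, 7.86 and 8.11 in AlivecGap + PBS cells and 7.96, 7.91 and 8.26 in NCGap + PBS cells. The treatments did not overlap in either background. In NCGap cells *Hoxb7* was 1.39-fold lower (−0.48 ± 0.117, limma adjusted p = 0.00787). In AlivecGap cells the log2 fold change was −0.32 ± 0.117 with an adjusted p of 0.0626, which passed without AlivecGap + PBS replicate 2 (0.0296) or NCGap + PBS replicate 3 (0.0357), and the mean AngII effect was −0.40 ± 0.0826 (adjusted p = 0.00187).

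*Hoxb3*, a hindbrain and pharyngeal gene, had 7.17, 6.95 and 7.29 in AlivecGap + AngII cells and 7.07, 7.27 and 7.06 in NCGap + AngII cells, against 7.46, 7.77 and 7.73 in AlivecGap + PBS cells and 7.64, 7.20 and 7.48 in NCGap + PBS cells. The second NCGap + PBS replicate fell among the AngII arrays. The log2 fold change was −0.52 ± 0.128 in AlivecGap cells (1.43-fold lower, limma adjusted p = 0.0101) and −0.31 ± 0.128 in NCGap cells (adjusted p = 0.0879, and 0.0234 without NCGap + PBS replicate 2).

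*Hoxb5*, which acts in the neck and shoulder region and in the enteric nervous system, had 7.07, 7.08 and 7.05 in AlivecGap + AngII cells and 7.29, 7.32 and 6.99 in NCGap + AngII cells, against 7.5, 7.34 and 7.43 in AlivecGap + PBS cells and 7.29, 7.66 and 7.37 in NCGap + PBS cells. Arrays of the 2 treatments were apart in AlivecGap cells and overlapped in NCGap cells. The values were −0.36 ± 0.107 in AlivecGap cells (1.28-fold lower, limma adjusted p = 0.0279) and −0.24 ± 0.107 in NCGap cells (adjusted p = 0.114). The AlivecGap call held in 12 of 20 other settings. It was lost without AlivecGap + AngII replicate 1, 2 or 3 (adjusted p = 0.0678, 0.0637 and 0.0693) and without AlivecGap + PBS replicate 1 or 3 (0.0934 and 0.0708), while the mean effect of −0.30 ± 0.0758 (adjusted p = 0.00705) held in all 19 tried.

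*Hoxc4*, a gene of the cervical and upper thoracic region and the only detected *Hoxc* gene, had 6.42, 6.43 and 6.84 in AlivecGap + AngII cells and 6.40, 6.69 and 6.56 in NCGap + AngII cells, against 7.01, 6.77 and 7.13 in AlivecGap + PBS cells and 6.62, 6.85 and 6.83 in NCGap + PBS cells. The treatments overlapped in both backgrounds. It was 1.33-fold lower in AlivecGap cells (−0.41 ± 0.13, limma adjusted p = 0.0362), and −0.21 ± 0.13 in NCGap cells (adjusted p = 0.241). The AlivecGap call was kept in 11 of 20 other settings, and was lost without AlivecGap + AngII replicate 1 or 2 (adjusted p = 0.13 each) or AlivecGap + PBS replicate 1 or 3 (0.0986 and 0.133). The mean effect was −0.31 ± 0.0917 (adjusted p = 0.016).

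**Figure D3:**
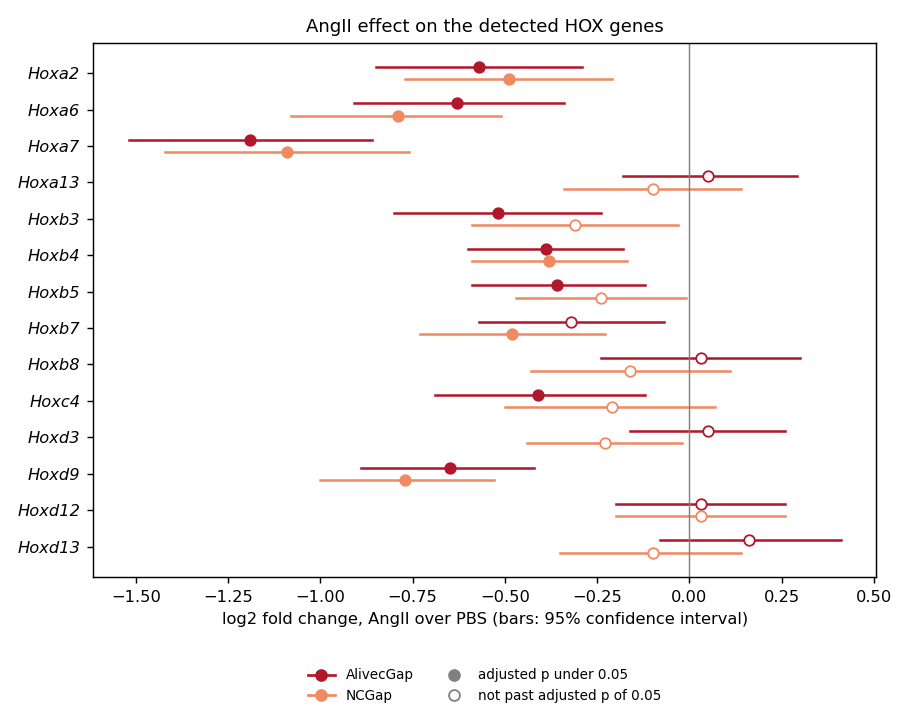
Log2 fold change of AngII over PBS for the 14 detected HOX genes, in AlivecGap cells (upper, dark) and NCGap cells (lower, light), with 95% confidence intervals and filled points at an adjusted p under 0.05. *Hoxa7* lies at −1.19 and −1.09, and the intervals of *Hoxa13*, *Hoxb8*, *Hoxd12* and *Hoxd13* cross 0 in both backgrounds.

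The 5 detected genes that did not pass the AngII test were *Hoxb8* and *Hoxd3* and the posterior genes *Hoxa13*, *Hoxd12* and *Hoxd13*, which pattern the hand, foot and urogenital tract. *Hoxd12* ranged over 6.33 to 6.80 on the 12 arrays, and its mean AngII effect was 0.03, with a 95% confidence interval of −0.13 to 0.19. *Hoxb8*, at 6.5 to 6.94, had a mean effect of −0.07 (−0.26 to 0.12). *Hoxd3*, at 6.47 to 7.0, had −0.09 (−0.24 to 0.06). These 3 intervals lie above the estimated falls of *Hoxa7*, *Hoxa6* and *Hoxd9*, while smaller changes could not be told from none with 3 arrays a group. All 3 genes were dim, and the array normalization compresses differences of dim probe sets. The intervals therefore bound the measured signal and not the change in RNA. *Hoxa13* (5.71 to 6.21) and *Hoxd13* (5.36 to 6.32) lay at the detection limit, where a fall could not be measured, and their AngII and PBS arrays overlapped in both backgrounds. No detected gene of groups 12 and 13 was called, but only *Hoxd12* of these lay above the detection limit. Every detected gene of groups 2, 4, 5, 6, 7 and 9 was called in the mean effect. Group 2 rests on *Hoxa2* alone, whose difference the filter favoured. In group 3 *Hoxb3* was called and *Hoxd3* was not, and in group 8 *Hoxb8*, its only detected gene, was not.

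Among the 9 undetected genes, a fit without the detection filter called *Hoxd1* lower with AngII in AlivecGap cells (limma adjusted p = 0.0448) and in the mean effect (adjusted p = 0.0395). Of all 23188 probe sets, that fit called 1728 lower in AlivecGap cells (3092 in either direction). In the mean effect it called 3430 lower (5794 in either direction). The signals of *Hoxd1* were at most 4.72, under the detection level on all 12 arrays, so no size is given for its difference. No other undetected HOX gene passed in that fit.

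The AngII effect on HOX genes was not shown to differ between the GapmeRs. The interaction of GapmeR and AngII was called for 0 of 14 HOX genes and for 0% of all tested probe sets. At an unadjusted limma p under 0.05 it was 814 of 14796 probe sets (5.5%), with 0 HOX genes among them. The smallest adjusted p of a HOX gene was 0.922, for *Hoxd3*, whose AngII effect was 0.28 higher in AlivecGap cells than in NCGap cells (95% confidence interval −0.02 to 0.58). For *Hoxa7*, *Hoxa6* and *Hoxd9* the differences were −0.10 (−0.56 to 0.37), 0.17 (−0.24 to 0.57) and 0.11 (−0.22 to 0.45), and a difference between the backgrounds within these bounds could not be detected with 3 arrays a group.

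Marker levels were compared in the same way. The 7 adventitial fibroblast probe sets, summed on the linear scale, gave log2 levels of 11.49 to 11.53 in AlivecGap + AngII cells and 11.23 to 11.42 in NCGap + AngII cells, against 11.70 to 11.86 in AlivecGap + PBS cells and 11.61 to 11.62 in NCGap + PBS cells. Of the 5 detected, *Pdgfra* (mean log2 fold change −0.52) and *Lum* (−0.32) were called lower with AngII, and 0 higher. The summed smooth muscle level was 15.22 to 15.25 in AlivecGap + AngII cells and 15.28 to 15.32 in NCGap + AngII cells, against 15.29 to 15.40 in AlivecGap + PBS cells and 15.40 to 15.44 in NCGap + PBS cells, and 4 of its 11 probe sets were lower and 2 higher in the mean AngII effect. Over all tested probe sets 26.2% were lower and 16.1% higher in that effect. The part of these shifts in the HOX result was not tested, and in bulk RNA fewer cells of a type and less RNA per cell cannot be told apart.

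For *Alivec* knockdown no detected HOX gene passed the test in a single treatment, and *Hoxd13* alone passed it in the mean over both treatments, lower with AlivecGap. AlivecGap was compared with NCGap in each treatment, on the same arrays as the AngII comparisons. By the same limma test 0 of 14 HOX genes were called with AngII, where 0.818% of tested probe sets were, and 0 of 14 with PBS, where 0.399% were. At an unadjusted p under 0.05 there was 1 in each (11.6% and 9.64% of tested probe sets), and the same gene, *Hoxd13*, passed the study's own thresholds of a 1.2-fold change and an unadjusted p under 0.05 in both (6.1% and 4.93%). The median log2 fold change of the 14 was −0.01 with AngII and −0.03 with PBS, beside 0.004 and 0.003 for all tested probe sets.

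*Hoxd13*, the most posterior gene of its cluster and a patterner of the digits, had 5.64, 5.77 and 5.82 in AlivecGap + AngII cells, against 5.93, 6.07 and 6.14 in NCGap + AngII cells. With PBS it had 5.36, 5.6 and 5.77 in AlivecGap cells, against 6.0, 6.32 and 6.11 in NCGap cells. All 6 AlivecGap arrays were under 6 and below all 6 NCGap arrays. Within 1 treatment, all 3 AlivecGap arrays lay below all 3 NCGap arrays for 9.65% of tested probe sets with AngII and 7.3% with PBS. The share with all 6 below all 6 was not computed. The log2 fold change was −0.30 ± 0.112 with AngII (limma adjusted p = 0.311) and −0.57 ± 0.112 with PBS (adjusted p = 0.0596), and the mean of both was −0.43 ± 0.0793 (adjusted p = 0.0128). This mean effect was the only HOX call, 1 of 14, where 1.65% of probe sets were called lower and 2.73% in either direction. Since AlivecGap arrays did not reach 6, its fold is a bound of at least 1.03-fold lower with AngII and at least 1.11-fold lower with PBS, and *Hoxd13* passed the filter through NCGap arrays alone. In the same mean knockdown effect the fibroblast marker *Dcn* was called higher (log2 fold change 0.54, adjusted p = 0.00294) and the smooth muscle marker *Cnn1* lower (−0.25, adjusted p = 0.0117), and their part in the *Hoxd13* result was not tested.

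**Figure D4:**
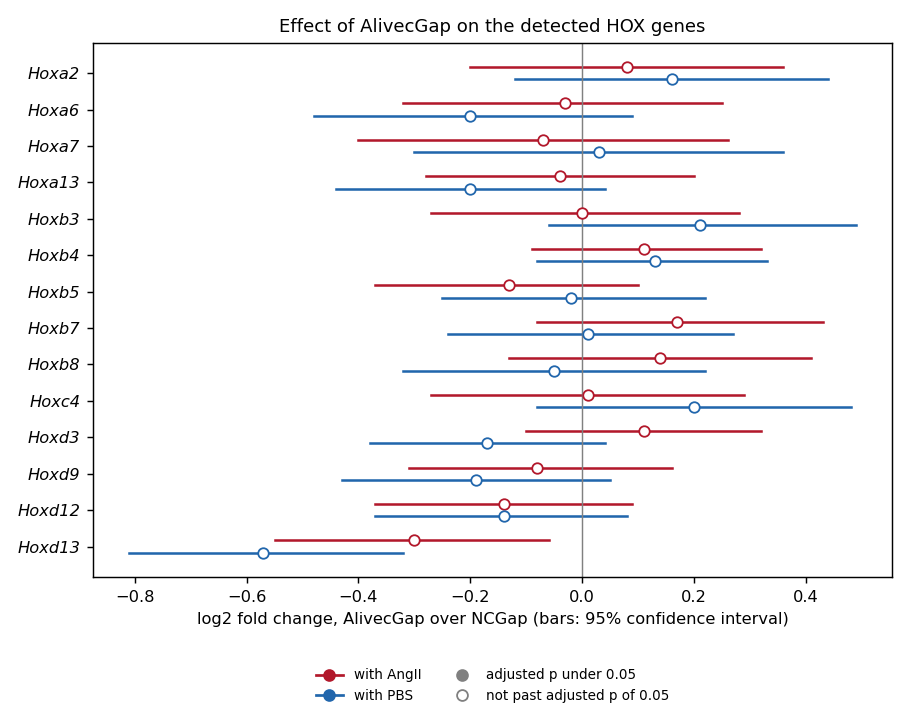
Log2 fold change of AlivecGap over NCGap for the 14 detected HOX genes, with AngII (upper, red) and with PBS (lower, blue), and 95% confidence intervals. No point is filled, since none passed an adjusted p of 0.05 in a single treatment, and *Hoxd13* at −0.30 and −0.57 is the gene whose intervals both lie below 0.

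The 11 HOX genes detected on all arrays differed between AlivecGap and NCGap by −0.14 (*Hoxd12*) to 0.17 (*Hoxb7*) on the log2 scale with AngII and by −0.20 (*Hoxa6*) to 0.21 (*Hoxb3*) with PBS. Their 95% confidence intervals reached from −0.40 to 0.43 with AngII and from −0.48 to 0.49 with PBS. For *Hoxa7* the difference was −0.07 (−0.40 to 0.26) with AngII and 0.03 (−0.30 to 0.36) with PBS. The knockdown differences of all 11 were thus smaller than the AngII differences of *Hoxa7*, *Hoxa6* and *Hoxd9* in either background.

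Of the proteins that bind DNA with HOX factors, 7 of 9 had a probe set and 5 were detected. In the mean AngII effect 3 of the 5 were lower and 1 higher, with 26.2% of all tested probe sets lower and 16.1% higher, and their median log2 fold change was −0.29. *Meis1* had 11.05, 11.07 and 10.97 in AlivecGap + AngII cells and 11.13, 11.02 and 11.02 in NCGap + AngII cells, against 11.41, 11.37 and 11.42 in AlivecGap + PBS cells and 11.26, 11.50 and 11.33 in NCGap + PBS cells. In the mean AngII effect *Meis1* was 1.26-fold lower (limma adjusted p = 0.000208), *Pbx3* 1.27-fold lower (0.000928) and *Pbx2* 1.22-fold lower (0.00577). *Pknox1*, a MEIS-related homeodomain protein, went the other way and was 1.47-fold higher (7.89e-05).

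Of 17 detected genes that lie beside the HOX clusters, 6 were lower in the mean AngII effect and 1 was higher, with a median log2 fold change of −0.11, so the share called was near the 42.3% of all tested probe sets. *Calcoco1*, beside the *Hoxc* cluster, was 1.60-fold lower (limma adjusted p = 1.15e-06), and *Cbx5*, which encodes the heterochromatin protein HP1 alpha there, 1.34-fold lower (8.96e-05). *Lnpk* beside *Hoxd* was 1.27-fold lower (0.000324) and *Hibadh* beside *Hoxa* 1.21-fold lower (0.00181). *Ube2z* beside *Hoxb* was 1.18-fold higher (0.00116).

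Chromatin regulators of HOX clusters were called in both directions. Of 9 detected genes of the trithorax list, which also holds other activating factors, 4 were higher with AngII and 2 lower in the mean effect, with a median of 0.03, against 16.1% higher and 26.2% lower among all tested probe sets. *Dot1l*, the H3K79 methyltransferase, had 10.07, 10.22 and 10.14 in AlivecGap + AngII cells and 10.48, 10.35 and 10.39 in NCGap + AngII cells, against 7.57, 7.5 and 7.54 in AlivecGap + PBS cells and 7.47, 7.60 and 7.37 in NCGap + PBS cells, a mean rise of 6.80-fold (limma adjusted p = 4.22e-12). *Kdm6b*, an H3K27 demethylase, was 1.80-fold higher (6.81e-07), and *Wdr5* and *Rbbp5*, core subunits of H3K4 methyltransferase complexes, were 1.41-fold (8.57e-06) and 1.21-fold (0.000259) higher. *Dpy30*, of the same complexes, was 1.31-fold lower (8.42e-06).

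Of 16 detected Polycomb genes 8 were lower and 2 higher in the mean AngII effect, with a median of −0.15, against 26.2% lower and 16.1% higher among all tested probe sets. *Ezh2*, the H3K27 methyltransferase, had 9.06, 9.01 and 9.30 in AlivecGap + AngII cells and 8.88, 8.92 and 9.12 in NCGap + AngII cells, against 9.61, 9.60 and 9.65 in AlivecGap + PBS cells and 9.25, 9.43 and 9.47 in NCGap + PBS cells. It was 1.37-fold lower (limma adjusted p = 0.000165), *Mtf2*, which helps recruit the same complex to CpG-rich DNA, 1.41-fold lower (2.3e-05), and *Cbx6* 1.47-fold lower (0.000154). *Phc2* and *Yaf2*, subunits of the other Polycomb complex, were 1.68-fold (1.04e-06) and 1.16-fold (0.0145) higher.

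In the retinoic acid pathway 5 of 13 detected genes were lower and 3 higher in the mean AngII effect, with a median of 0.05, against 26.2% lower and 16.1% higher over all tested probe sets. The receptor gene *Rara* was 1.60-fold higher (limma adjusted p = 8.81e-06), its partner *Rxrb* 1.35-fold lower (0.00185) and *Cyp26b1*, which breaks retinoic acid down, 1.73-fold lower (0.000313). *Aldh1a2*, which makes retinoic acid, had 5.57, 5.64 and 5.56 in AlivecGap + AngII cells and 5.96, 5.93 and 5.95 in NCGap + AngII cells, against 5.73, 5.85 and 5.99 in AlivecGap + PBS cells and 6.06, 6.19 and 6.33 in NCGap + PBS cells. It was the only gene of these 6 lists called in the mean knockdown effect, lower with AlivecGap (adjusted p = 0.00854). Its AngII arrays and its AlivecGap arrays were all under 6 and it passed the filter through the NCGap + PBS arrays alone, so no size is given for this difference.

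Among 19 detected transcription factors with other positional roles, 5 were lower and 5 higher in the mean AngII effect, with a median of −0.02, and the share called lower was near the 26.2% of all tested probe sets (16.1% were higher). *Pax9* was 2.91-fold lower (limma adjusted p = 3.45e-07), *Gata6*, a regulator of smooth muscle differentiation, 1.88-fold lower (2.05e-08) and the limb gene *Prrx1* 1.56-fold lower (3.55e-07). *Twist1* was 2.25-fold higher (8.71e-08). None of the 11 noncoding RNAs listed for the HOX clusters, such as *Hotair*, *Hottip* and *Mir10a*, had a named probe set.

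**Figure D5:**
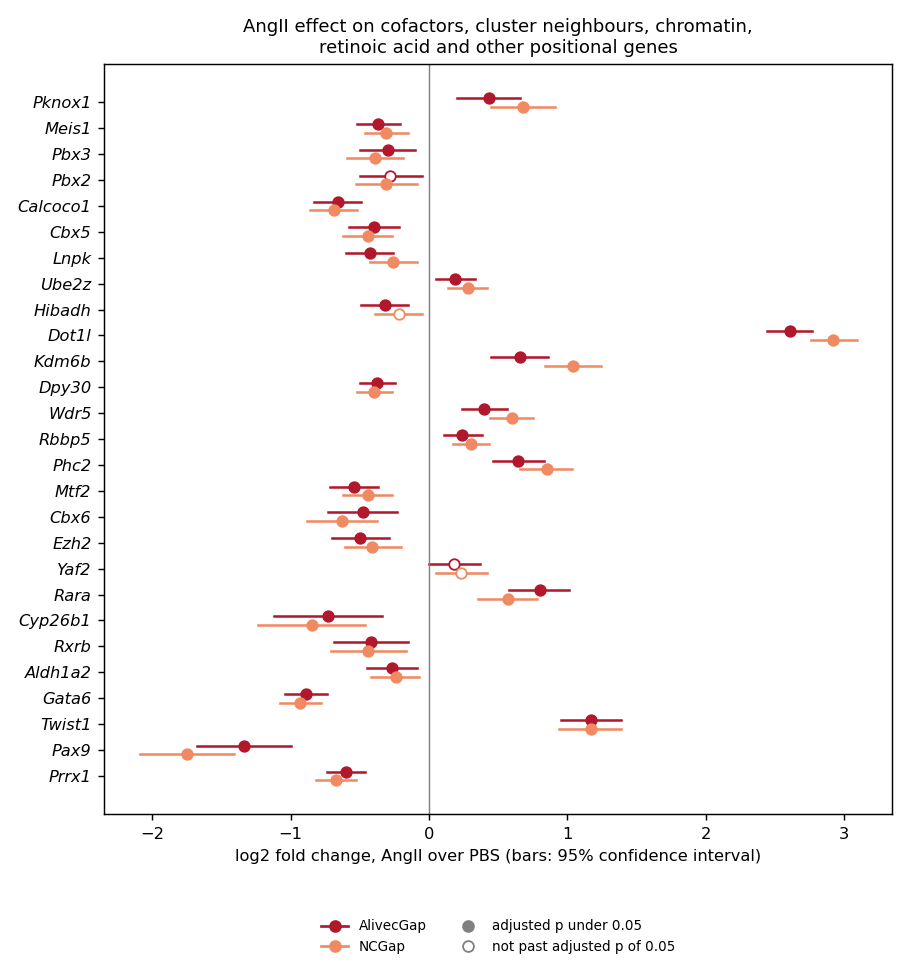
Log2 fold change of AngII over PBS for cofactors, cluster neighbours, chromatin regulators, retinoic acid genes and other positional factors picked by the naming rule that passed in the mean AngII effect, in AlivecGap cells (upper, dark) and NCGap cells (lower, light), with 95% confidence intervals and filled points at an adjusted p under 0.05. *Dot1l* stands farthest to the right and *Pax9* farthest to the left.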

How the data were processed

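Rat Clariom S arrays were hybridized with cDNA from total RNA. The authors imported the scanner intensities into Partek Genomics Suite and normalized them by Robust Multichip Average (RMA), so the deposited values are log2 signals. Probe sets were named from the platform annotation, which gave 15049 of 23188 a symbol. The deposited log2 values were used as given. Probe sets at or above 6 on at least 3 of the 12 arrays were fitted with a group-means model in limma 3.58.1 (R 4.3.3, lmFit and eBayes), with Benjamini-Hochberg adjustment over the 14796 tested. SE and 95% intervals come from that fit. The fit was tested on simulated data. The text gives no fold for genes under 6 in both groups, while the figures draw the fitted log2 fold change of every gene shown. RMA compresses differences of dim probe sets, and 3 arrays a group limit the precision. The HOX genes and the comparison lists were chosen with earlier results of these data known. Detected HOX genes are all named, and called ones have every array's value. In each comparison list the rule names up to 4 genes with the smallest p in the mean AngII effect and up to 2 in the mean knockdown effect, and only those past the test are described. Alternatives were other variance priors, filters, normalizations, array subsets, a replicate block and leaving out each array.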

Additional observations from a re-analysis of the deposited data

How the results depend on the processing

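The 9 HOX calls in the mean AngII effect were kept in every alternative in which those genes were tested, and no called HOX value changed its sign. The 9 include *Hoxa2*, whose difference the filter favoured. Where 6 was asked of all 12 arrays *Hoxa2* was not tested, and 8 genes were called. Leaving out 1 array at a time gave 6 to 9 HOX genes called with AngII in AlivecGap cells, 5 to 7 in NCGap cells and 9 in the mean effect. It gave 0 for the knockdown in each treatment and the interaction, and 1 for the mean knockdown effect. With all arrays that call was *Hoxd13*, which passed the filter through NCGap arrays alone. Over all probe sets the same omissions gave 2907 to 4130 calls for AngII in AlivecGap cells, 3712 to 4557 in NCGap cells and 5727 to 6297 in the mean effect. For the knockdown they gave 18 to 156 with AngII (121 with all arrays; 18 without AlivecGap + AngII replicate 1), 3 to 106 with PBS (59 with all arrays; 3 without NCGap + PBS replicate 1) and 225 to 404 in the mean effect (404 with all arrays; 225 without AlivecGap + AngII replicate 1). The interaction kept 0 calls.

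The knockdown counts moved most with the processing. With AngII, 74 probe sets were called by an ordinary linear model, 323 with a trended robust prior, 25 without the filter, 26 from the compared groups alone and 903 at the study's thresholds. With PBS the counts were 12, 202, 10, 1 and 729 in the same order, and 89 after a further quantile normalization. The mean knockdown effect gave 724 with the trended prior and 201 without the filter, and the interaction gave 692 at the study's thresholds. Of the HOX genes, 1 (*Hoxd13*) passed those thresholds with AngII and 1 with PBS, and 0 passed in the mean knockdown effect where 6 was asked of all 12 arrays, which removes *Hoxd13*. A detection level of 7 left 6 HOX genes instead of 14. The cause of the other shifts was not tested.

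The labels do not say that a replicate number marks a shared culture or day, and the data did not settle it. Deviations of same-numbered samples of different groups correlated at -0.0938 to 0.323 over 18 pairs (median 0.0941, 9 above 0.1), and those of differently numbered samples at -0.338 to 0.272 over 36 pairs (median -0.0614, 4 above 0.1), a lean towards pairing that did not hold for every pair. With the replicate number as a block, *Hoxd13* was called for the knockdown with PBS, 1 HOX gene (limma adjusted p = 0.0194), and *Hoxd3* for AngII in NCGap cells (adjusted p = 0.038), 7 HOX genes instead of 6.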
